A study of Homo sapiens with 14 samples.

Results

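SATB1 and CTCF occupancy were compared in Jurkat cells that carried the control shRNA (shCtrl), using 5 of the 14 CUT&Tag peak lists of the series. Jurkat is an established human T cell leukaemia line, and CUT&Tag uses an antibody to direct the Tn5 transposase to the sites where a protein is bound. All 5 libraries came from control cells infected with the shCtrl lentivirus, so no knockdown library enters the comparison. The members were 13072 SATB1 regions, called in both SATB1 lists out of 16506 merged regions, and 30212 CTCF regions, called in at least 2 of the 3 CTCF lists out of 34069. Peaks that overlapped by at least 1 bp were merged within a factor, on chromosomes 1 to 22 and X. The H3K27ac lists of shCtrl cells gave 15239 regions called in both and were used as a further readout, because this histone mark labels active promoters and enhancers.

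SATB1 is a nuclear protein of T cells and thymocytes that binds AT-rich DNA and recruits chromatin remodelling and deacetylase complexes. CTCF is a zinc finger protein that binds a long GC-rich motif and halts the cohesin ring, which sets loop anchors and domain borders. Both are known to shape chromosome folding in thymocytes, and the series addresses how SATB1 acts around CTCF sites.

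The SATB1 lists held 15210 and 14726 peaks with median widths of 1241 and 1228.5 bp, and the CTCF lists held 31270, 31141 and 32540 peaks with median widths of 2371, 2454 and 2559 bp. Peaks with an identical start made up 40.8% of the shorter SATB1 list (6001 peaks), against 0.800% to 0.890% between CTCF lists, so the SATB1 lists are treated as 1 sample and their spread is not taken as replicate error. Between a SATB1 and a CTCF list, at most 0.263% of starts were identical. Signal was not scaled between lists, so a peak's strength is given only as its percentile of maximum signal within its own list. H3K27ac lay at the ends of 8 of 8 T cell marker genes, among them CD3D, CD3E, LCK and ZAP70, and at 2 of 6 B cell, 0 of 6 myeloid, 1 of 4 erythroid and 0 of 4 epithelial or stromal markers.

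The promoter stretches below show how the maxima of the factors lie on DNA. They come from RefSeq (GRCh38.p14), are written 5′ to 3′ on the gene's strand, and carry in capitals the bases from the first to the last maximum of a factor with 5 bases on either side. POLR3E (an RNA polymerase III subunit, chr16:22297206-22297325, plus strand) shows only the CTCF maximum, because the SATB1 maximum lay outside the window. RCC1 (a regulator of chromosome condensation, chr1:28505923-28506042, plus strand) shows the SATB1 maximum. C1QTNF6 (a secreted C1q family protein, chr22:37199455-37199574, minus strand) and DHRS13 (a dehydrogenase family member, chr17:28903081-28903200, minus strand) show the CTCF maxima of the highest genes with CTCF alone.
POLR3E: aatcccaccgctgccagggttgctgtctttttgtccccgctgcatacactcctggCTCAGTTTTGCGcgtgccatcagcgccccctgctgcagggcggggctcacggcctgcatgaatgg
RCC1: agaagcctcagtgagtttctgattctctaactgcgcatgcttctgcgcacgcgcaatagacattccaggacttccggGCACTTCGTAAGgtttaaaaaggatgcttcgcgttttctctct
C1QTNF6: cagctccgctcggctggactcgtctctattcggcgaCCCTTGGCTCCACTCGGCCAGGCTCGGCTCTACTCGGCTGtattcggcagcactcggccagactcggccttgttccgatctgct
DHRS13: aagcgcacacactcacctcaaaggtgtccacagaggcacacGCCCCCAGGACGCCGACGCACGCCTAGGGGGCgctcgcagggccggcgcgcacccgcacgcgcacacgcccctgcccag

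CTCF covered most SATB1 regions, and SATB1 covered a minority of CTCF regions. Of the SATB1 regions, 9281 (71.0%, 95% Wilson interval 70.2 to 71.8) overlapped CTCF, and 8226 CTCF regions (27.2%, 26.7 to 27.7) overlapped SATB1. These intervals cover counting error over regions only. Of the 3791 SATB1 regions without CTCF, 3329 (87.8%) touched no peak in any CTCF list. In 87.4% of the 9323 shared region pairs the SATB1 region lay wholly inside the CTCF region. The SATB1 maximum fell inside the CTCF region in 98.6% of pairs, and the CTCF maximum fell inside the SATB1 region in 78.8% to 79.1%. More than 1 SATB1 region lay in 886 of the shared CTCF regions (10.8%). The longer CTCF lists bear on these shares: with all 5 lists cut to the 14726 peaks of highest signal, 44.9% of SATB1 regions overlapped CTCF and 35.2% of CTCF regions overlapped SATB1.

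Within shared regions, the maxima of SATB1 and CTCF lay close together but farther apart than those of repeat CTCF lists. The median distance between the maxima was 122 to 127 bp over the 6 pairings of a SATB1 with a CTCF list, with a lower quartile of 38.8 to 40.0 bp and an upper quartile of 750 to 787 bp. The maxima of 3 pairings of CTCF lists in these same regions lay a median of 27 to 28 bp apart, so the ranges over list pairings did not overlap. The SATB1 lists differed by a median of 11 bp, in lists that are not independent. Within 100 bp lay 44.8% to 45.5% of the SATB1 and CTCF maxima, against 80.3% to 81.0% between CTCF lists. Over 2000 bp apart lay 15.6% to 15.9% of the SATB1 and CTCF maxima, against 2.63% to 3.08% between CTCF lists. The pairings share their lists, so no p-value is given for this difference. The 8205 region pairs that also carried H3K27ac gave a median distance of 126 to 135 bp from SATB1 to the H3K27ac maximum and of 95 to 105 bp from CTCF to the H3K27ac maximum, beside 125 to 130 bp from SATB1 to CTCF. By these medians the SATB1 maximum was no nearer to that of CTCF than to that of the histone mark beyond the spread between list pairings. Within 100 bp the share was 44.2% to 44.9% for SATB1 to CTCF, against 42.2% to 43.9% for SATB1 to H3K27ac. Within 500 bp the order reversed, at 71.1% to 71.5% against 75.4% to 75.9%.

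**Figure D1:**
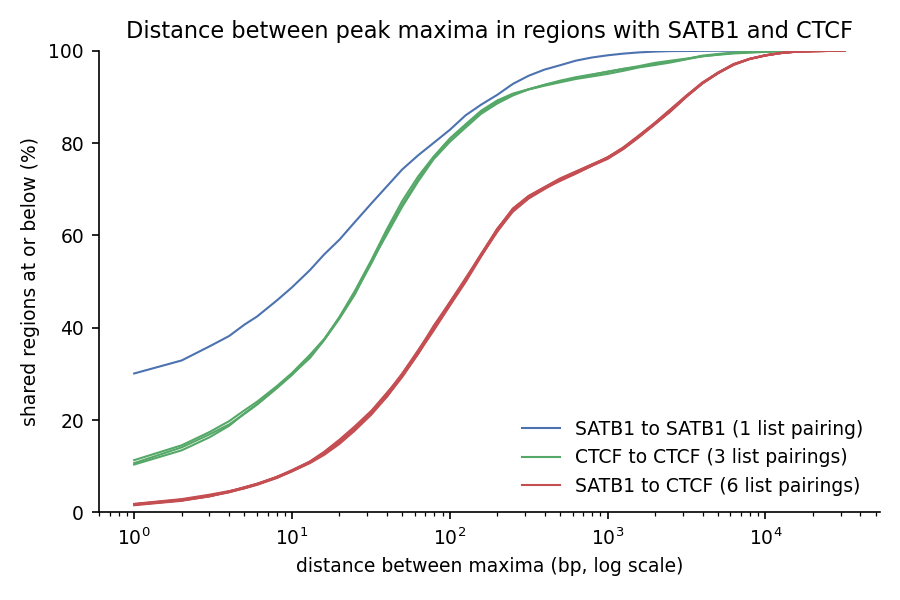
Cumulative share of the shared regions (y axis, %) by distance between peak maxima (x axis, bp, log scale), 1 line for each pairing of lists. The 6 SATB1 to CTCF lines reach 71.8% to 72.4% at 500 bp, where the CTCF to CTCF lines are at 93.2% to 93.5%.

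The distance varied most with the width of the CTCF region. The SATB1 maximum lay inside that region in 98.6% of pairs, so its width limits the distance and a rise with width is in part built in. In the lowest quartile of shared pairs by CTCF width (median 2256 bp) the SATB1 and CTCF maxima lay a median of 70 to 74 bp apart, and in the highest (median 9665 bp) 1440 to 1594 bp. The distance between CTCF lists stayed at 26 to 31 bp across the same quartiles. A region can merge several peaks of a factor, so the distance was also taken between the nearest maxima of any peaks in a pair, which gave a median of 116 bp over all shared pairs. Over the pairs with a CTCF region of up to 3 kb alone, the median was 73.7 bp. It was also 73.7 bp in regions rebuilt from only the stronger peaks of each list. With the full lists, the median was 88 to 97 bp over 4087 pairs at gene ends. It was longer at distal pairs, 153 to 160 bp over 5236. Between CTCF lists it was 21 to 22 bp and 34 to 35 bp in the same order. The gene end is 2 kb to either side of an annotated start or stop of a protein-coding gene. SATB1 strength went with the distance too. The SATB1 to CTCF median was 269 to 278 bp in the lowest quartile of SATB1 percentiles and 72 to 77 bp in the highest. The SATB1 lists themselves differed by a median of 39 bp in the lowest and 5 bp in the highest. By CTCF percentile the SATB1 to CTCF medians ran from 145 to 152 bp in the lowest to 92 to 96 bp in the highest. Between CTCF lists they were 64 to 75 bp in the lowest and 10 to 11 bp in the highest. The placing of maxima within a factor thus varied over these groups as well, and its part in the distance was not tested.

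Single loci showed both extremes. At PCCB, which encodes a mitochondrial carboxylase subunit, all 5 maxima were centred on the same base, chr3:136250468. At CNOT4, a ubiquitin ligase of the CCR4-NOT complex, and ZMYM6 the mean distance was 0.333 and 0.500 bp. These loci are among those with the smallest distances among 987 gene-end pairs above the 75th percentile for both factors. POLR3E headed the genes with both factors by strength, at the 99.4th percentile in both SATB1 lists and the 99.9th in all 3 CTCF lists. Its maxima nevertheless lay 1196 bp apart. The CTCF maximum was 142, 143 and 143 bases before the start, with the letters GCCCCCTG, a match to the core CTCF motif given below, 124 to 117 bases before it. The first bases of that window belong to a leucine tRNA gene.

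The largest distances came from wide merged regions, the only ones with room for them. They were 18027 bp at the VDAC1 and TCF7 locus, in a CTCF region of 53934 bp, 13254 bp at DNTT (terminal transferase, which adds nucleotides during V(D)J joining), 12218 bp at RCC1 and 10435 bp at KIF22. At CABCOCO1 they were 14554 bp apart, in a SATB1 region of 18993 bp. Between the nearest maxima of any peaks in the same pair of regions the distances were 4148 bp at VDAC1, 6399 bp at DNTT, 4117 bp at RCC1 and 3494 bp at KIF22. At RCC1 the SATB1 maxima lay 38 and 37 bases before the upstream start, the printed one, while the highest CTCF maxima lay 3, 2 and 2 bases before a second, downstream start. SATB1 list 2 also had a maximum 174 bases before that downstream start, outside the SATB1 region of this pair. SATB1 list 1 had none in that promoter window.

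Where a region lay, and whether it carried H3K27ac, went with the sharing of the factors. At gene ends 95.9% of 4250 SATB1 regions overlapped CTCF, against 59.0% of 8822 distal ones. Distal SATB1 regions with H3K27ac overlapped CTCF in 73.9% of 6092 cases (72.7 to 74.9) and those without it in 25.9% of 2730 (24.3 to 27.6). For CTCF regions the mark separated the classes at gene ends and at distal sites alike: 58.5% of 6390 gene-end CTCF regions with H3K27ac overlapped SATB1 against 7.53% of 5349 without it, and at distal sites 62.4% of 5548 against 4.82% of 12925. Seen from the other side, H3K27ac lay on 88.0% of SATB1 regions with CTCF and 44.3% of those without, and on 87.5% of CTCF regions with SATB1 and 21.6% of those without. Matrin 3 is a nuclear matrix protein measured by the same assay, in lists whose titles name neither a cell line nor an shRNA. The longer list held 24566 peaks and the other 2105, so the values rest on the longer list alone. This longer list overlapped 93.9% of SATB1 regions with CTCF and 55.9% of those without. It overlapped 96.2% of CTCF regions with SATB1 and 32.8% of those without. Overlap with a protein that is neither factor thus moved with the classes in the same direction; its part in the result was not tested. With lists of equal length the share of distal SATB1 regions with CTCF was 27.5% in place of 59.0%.

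**Figure D2:**
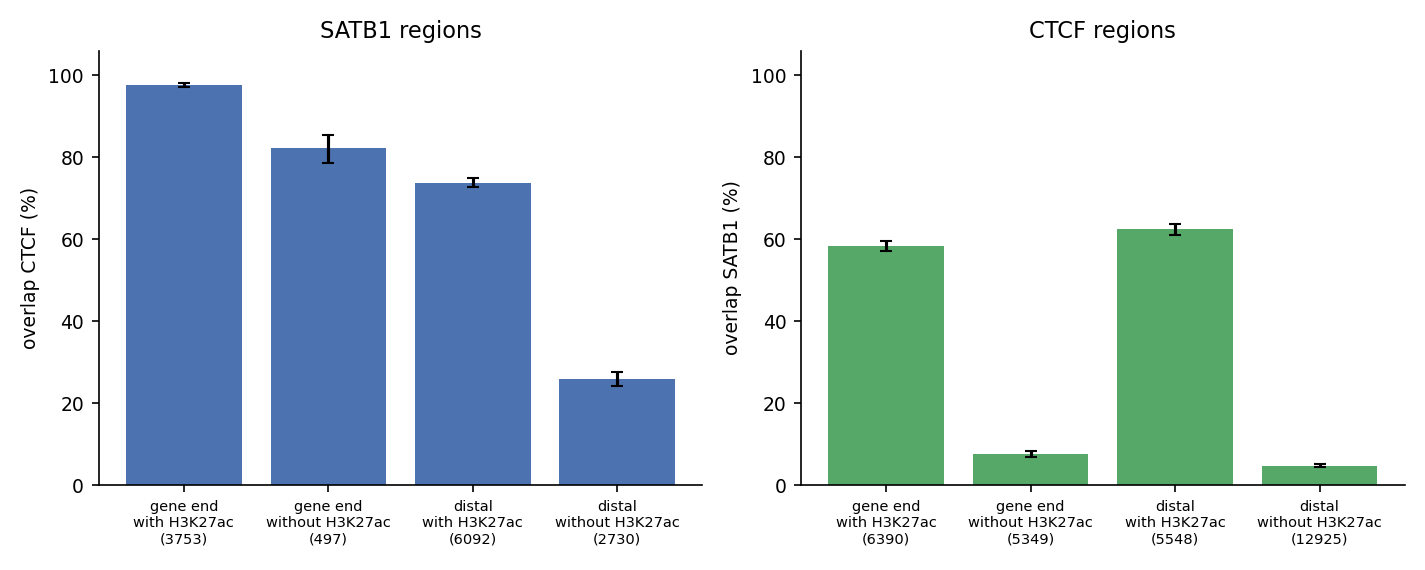
Share of SATB1 regions that overlap CTCF (left) and of CTCF regions that overlap SATB1 (right), in %, by place and H3K27ac, with 95% Wilson intervals as bars and the number of regions in brackets. Distal CTCF regions run from 62.4% with H3K27ac to 4.82% without it.

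Shared CTCF regions were wider in CTCF than the others, and stronger mainly when gene ends were included. The median CTCF percentile of regions with SATB1 was 68.1, 67.7 and 68.7 in the 3 lists, against 48.2, 48.2 and 49.3 without SATB1. The difference was 19.6 ± 0.242 percentile points (SD, n = 3), in the same direction in 3 of 3 lists, and its exact two-sided sign-flip permutation p of 0.25 is the smallest that 3 lists allow. Over distal regions alone the difference was 2.43 points, and shared regions lay at gene ends more often (50.3%) than CTCF regions without SATB1 (34.6%). It was 9.33 points with lists of equal length and 11.1 with only the stronger peaks of each list. The median CTCF peak width was 2775, 2849.5 and 3057 bp with SATB1 against 2248, 2335 and 2452.5 bp without, a difference of 549 ± 48.8 bp (SD, n = 3; exact p = 0.25, the smallest possible). It was 530 bp over distal regions alone, and 300 bp when overlap was counted between windows of 500 bp on the maxima. Wider regions have more room for an overlap, and this part was not tested. SATB1 peaks in regions with CTCF stood 14.4 and 9.36 percentile points above those without CTCF and were 107 bp wider in both lists. The maximum signal of SATB1 peaks is low, with a median of 16 in both lists. Many peaks tie, so these percentiles move in coarse steps. The share of SATB1 regions with CTCF ran from 57.4% in the lowest decile of SATB1 percentiles to 82.8% in the highest. The share of CTCF regions with SATB1 did not follow one direction: it was 22.0% in the lowest decile of CTCF percentiles, 17.1% in the fourth and 53.8% in the highest. The share with H3K27ac had the same shape, at 40.1%, 28.2% and 63.7% in those deciles.

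**Figure D3:**
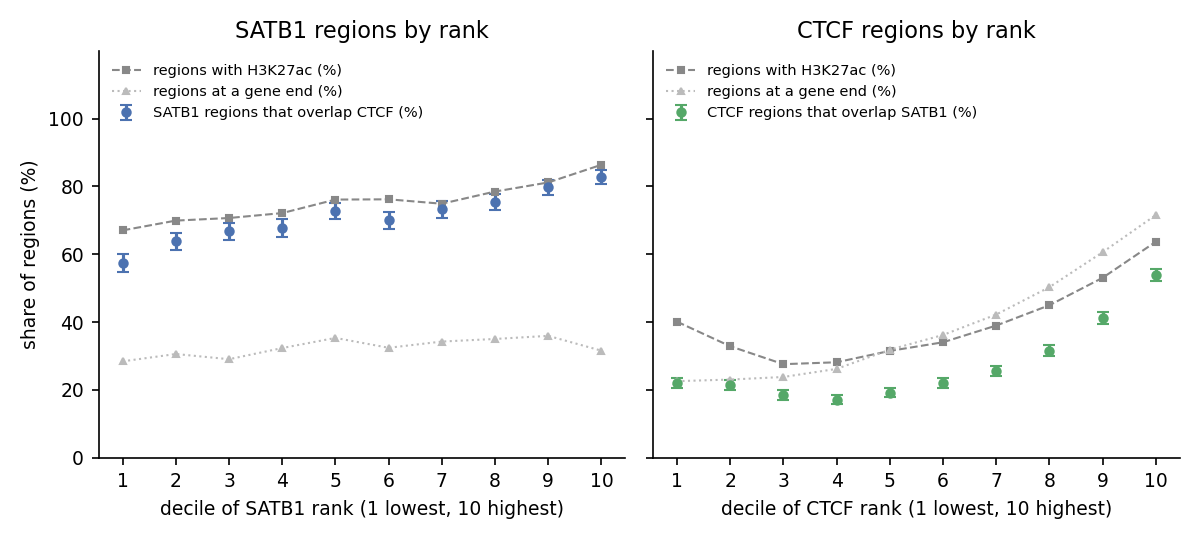
Share of regions (y axis, %) by decile of the percentile of maximum signal (x axis), for SATB1 regions that overlap CTCF (left) and CTCF regions that overlap SATB1 (right), with 95% Wilson intervals. Grey squares give the share with H3K27ac and grey triangles the share at a gene end, which for CTCF reaches 71.6% in the highest decile.

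Of 19974 protein-coding genes, SATB1 lay at an end of 4918 (24.6%) and CTCF at an end of 12305 (61.6%). Both lay at 4835 genes (24.2%), SATB1 alone at 83 (0.416%), CTCF alone at 7470 (37.4%) and neither at 7586. In single lists the number of genes was 5423 and 5291 for SATB1 and 11989, 12065 and 12289 for CTCF. The number with SATB1 alone depends on list length: it was 715 with lists of equal length and 132 with CTCF required in all 3 lists. The number with CTCF alone was 4745 with lists of equal length, and that with both was 2586 with only the stronger peaks of each list. Among the 7812 genes with H3K27ac at an end 56.6% had both factors, and among the 12162 without it 3.41% did. H3K27ac lay at an end of 91.4% of genes with both, 56.6% with SATB1 alone, 42.8% with CTCF alone and 1.96% with neither. The median CTCF percentile was 84.7 at genes with both and 65.5 at genes with CTCF alone. Of the 4784 genes with both factors in 1 shared region, 2537 (53.0%) had the maxima within 100 bp, with a median of 89.0 bp.

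The genes with both factors and the highest percentiles, after POLR3E, were NDUFA11 with VMAC, EFCAB5 with SSH2, EIF5A, and ATP8B3 with REXO1. Both genes of a pair had the same percentiles. NDUFA11 encodes a complex I subunit, SSH2 a cofilin phosphatase, EIF5A a translation factor, and their maxima lay 18.0, 118 and 39.0 bp apart. The own genes of the factors belonged to this class. At SATB1 the percentiles were 49.5 and 43.1 in the SATB1 lists and 80.2, 77.5 and 85.3 in the CTCF lists, with maxima 17.7 bp apart. At CTCF they were 97.3 and 97.5, and 99.0, 98.8 and 98.9, with maxima 16.5 bp apart.

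The genes with SATB1 alone and the highest percentiles were TMEM225B, PCDH10 (a protocadherin), CTTNBP2, RTL3, STATH (a salivary protein), TMEM181, CGAS (the cytosolic DNA sensor) and BCHE (butyrylcholinesterase). TMEM225B stood at the 99.5th percentile in both SATB1 lists, and BCHE at 93.7 and 89.2. These classes refer to the outermost annotated ends of a gene. At an inner RefSeq start of TMEM181 the CTCF maxima of all 3 lists lay 73, 104 and 55 bases upstream, so this gene is not free of CTCF. H3K27ac lay at an end of PCDH10, CTTNBP2, RTL3, STATH and BCHE. The genes with CTCF alone and the highest percentiles were C1QTNF6, DHRS13 with FLOT2, FOXD2, CDK5RAP3, CCDC183, RIPOR1 and CRIP2. C1QTNF6 was the strongest, above the 99.9th percentile in each CTCF list, and its maxima in the printed window lay 81, 81 and 110 bases before the start. The DHRS13 maxima lay 75, 54 and 54 bases before the start. At an inner start of CDK5RAP3 both SATB1 maxima lay 182 bases upstream and the CTCF maxima 144, 144 and 143.

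Genes of T cell receptor signalling mostly carried both factors, with maxima far apart. Both lay at 14 of 20 genes, SATB1 alone at 1, CTCF alone at 4 and neither at 1, against 24.2% of all genes with both. H3K27ac lay at 17 of the 20, and among all genes with that mark the share with both was 56.6%. At 3 of the 14 genes the maxima were within 100 bp, and the median distance was 931 bp, against 89.0 bp over all genes with both. The CTCF regions at these genes were wide, with a median of 10315 bp against 3996 bp over all genes with both. Among all genes with both whose CTCF region exceeded 10 kb, the median distance was 234 bp over 476 genes and 33.8% were within 100 bp, beside 76.5 bp and 59.0% over 1332 genes with regions up to 3 kb. FYN, a Src family kinase, had its maxima 14.5 bp apart, and CD3E, a chain of the receptor complex, 22.3 bp. CD2, an adhesion receptor, was at 5513 bp, in a CTCF region of 19174 bp, and its nearest maxima lay at the same distance. The median of the list between nearest maxima was also 931 bp, with 4 of the 14 genes within 100 bp. CD3D and CD3G carried the same SATB1 and CTCF peaks, 821 bp apart, and both are counted among the 14. CTCF lay without SATB1 at CD5, CD247 and LAT, among others, and TRAT1 carried SATB1 alone at percentiles of 38.4 and 48.5. PTPRC, the CD45 phosphatase, carried neither.

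Thymocyte coreceptor and recombination genes had both at 9 of 16 (56.3%), SATB1 alone at 1, CTCF alone at 3 and neither at 3. H3K27ac lay at 11 of the 16. All 9 genes with both were among these 11. The share with both over all members is above the 24.2% of all genes. The 56.6% counts genes with H3K27ac alone, so it is no like measure for a list with unmarked members. None of the 9 had its maxima within 100 bp, the median was 1546 bp, and the median CTCF region was 7571 bp wide. CD1D, a lipid antigen presenting molecule, came closest at 126 bp, and CD1B and CD1C stood at 3748 and 3820 bp. The recombinase genes lie next to each other and were split: RAG1 had CTCF alone, at percentiles of 94.4, 94.6 and 94.7, and RAG2 had SATB1 alone, at 38.4 and 48.5. CD4 also had CTCF alone, at percentiles of 94.1, 94.0 and 93.4. Transcription factors of the T lineage, 15 of 20 with H3K27ac, had both at 11 (55%, marked or not), CTCF alone at 7 and neither at 2. Their median distance was 112 bp, with 4 of 11 within 100 bp. BCL11B, which maintains T cell identity, had the factors 16.8 bp apart. TOX stood at 156 bp, RUNX1 at 112 bp and IKZF2 at 1831 bp. ZBTB7B and TCF7 headed the genes with CTCF alone. TCF7 is not free of SATB1: a SATB1 region at chr5:134114067-134114751, at percentiles of 76.1 and 84.2, lies inside the gene. It is away from the ends of TCF7 and shares the CTCF region of 53934 bp.

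Genes of genome architecture had H3K27ac at 22 of 24. Both factors lay at 13 (54.2%, marked or not), against 24.2% of all genes and 56.6% of marked genes alone. CTCF alone lay at 10 and neither at 1. The median distance was 58.5 bp, with 7 of 13 within 100 bp. ZNF143, a factor found at looped promoters, had its maxima 45.0 bp apart, LMNB1, a lamin, 41.0 bp, and the cohesin subunit gene STAG1 108 bp. PDS5A, TOP2A and STAG2 had CTCF alone. Genes of the chromatin partners of SATB1, 13 of 17 with H3K27ac, had both at 8 (47.1%) and CTCF alone at 9, with a median of 45.8 bp and 6 of 8 within 100 bp. RBBP4 (21.8 bp) and MTA2 (42.2 bp) encode subunits of the NuRD deacetylase complex, as does CHD4 (107 bp). KAT2B and SMARCA4 had CTCF alone. Genes reported as SATB1 targets in T cells had both at 5 of 20, near the 24.2% of all genes, SATB1 alone at 2, CTCF alone at 6 and neither at 7. H3K27ac lay at 10 of these 20. IL2, the T cell growth factor, had SATB1 alone at percentiles of 88.4 and 88.3 and no H3K27ac.

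The TAL1 complex and leukaemia oncogenes had both at 11 of 20, cytokines and their receptors at 8 of 22, immediate-early genes at 9 of 20, apoptosis genes at 9 of 20 and ribosomal protein genes at 10 of 20. CTCF alone lay at 5, 6, 9, 10 and 10 members of these lists, and H3K27ac at 15, 12, 13, 16 and 19. All 5 shares with both (55%, 36.4%, 45%, 45% and 50%) exceeded the 24.2% of all genes. They count members with and without H3K27ac, so the 56.6% of marked genes is no like measure for them. TAL1 and LYL1 had CTCF alone, while the TAL1 partner gene LMO1 had both, 3857 bp apart. JUN had both factors 10.5 bp apart, and FOSB had CTCF alone at high percentiles. FAS, a death receptor gene, was the apoptosis member with SATB1 alone. Ribosomal protein genes, active in all cells, gave a median distance of 93.8 bp with 6 of 10 within 100 bp. The clustered protocadherins, expressed mainly in neurons, had both at 0 of 26 genes and CTCF alone at 7. The HOXA cluster had both at 1 of 11 (HOXA3) and CTCF alone at 6. H3K27ac lay at 0 members of either list. Of all genes without that mark 3.41% had both, and of all genes 37.4% had CTCF alone. Markers of other cells had both at 2 of 12 (B cell), 2 of 14 (myeloid), 2 of 12 (erythroid and megakaryocyte), 1 of 12 (neuronal) and 4 of 12 (epithelial and stromal). In the same order, H3K27ac lay at 5, 2, 2, 0 and 3 members of these lists. Of the 4 epithelial and stromal genes with both, VIM, MUC1 and ACTA2 carried it, but not COL1A1. These counts describe the lists and were not tested.

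**Figure D4:**
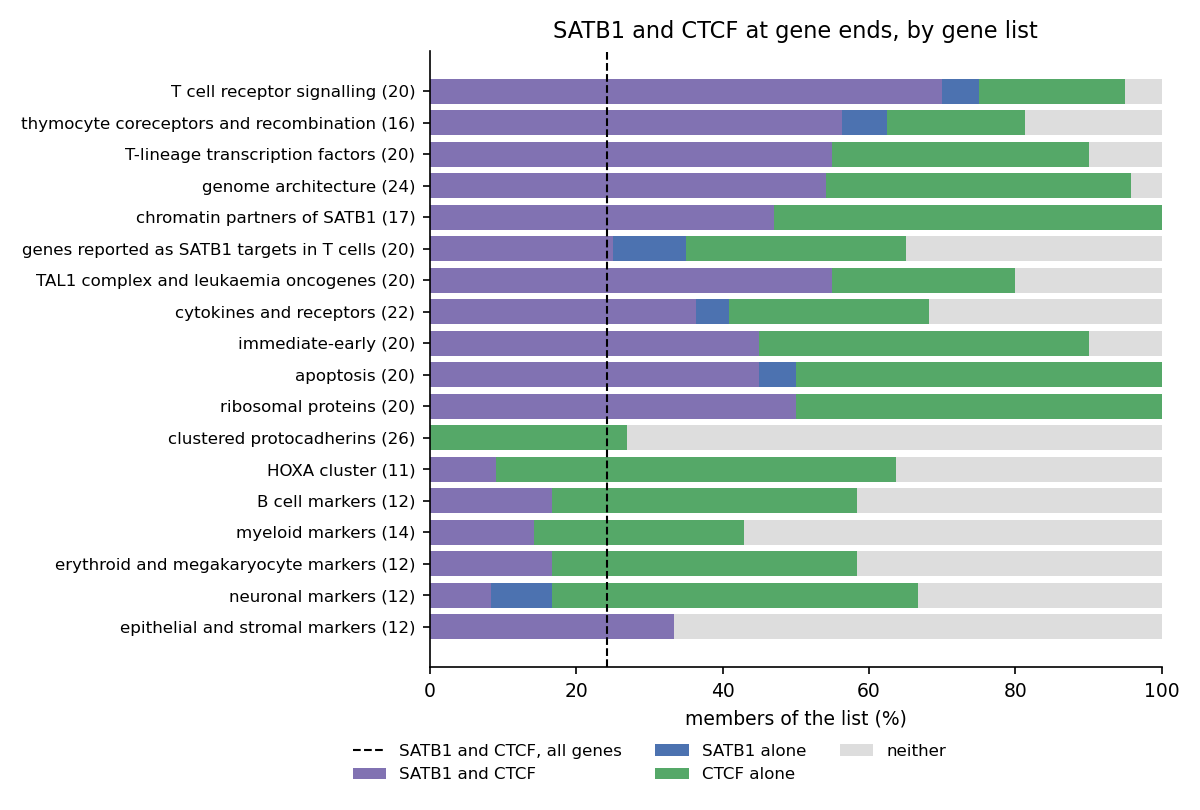
Share of each gene list (x axis, %) with SATB1 and CTCF, SATB1 alone, CTCF alone or neither at a gene end; list sizes are in brackets and the dashed line marks the 24.2% of all genes with both. T cell receptor signalling reaches 14 of 20 and the clustered protocadherins 0 of 26, in lists with H3K27ac at 17 and 0 genes.

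Distal sites fell into classes that differed in H3K27ac and in distance from genes. The 5206 distal SATB1 regions with CTCF carried H3K27ac in 86.4%, the 3616 with SATB1 alone in 44.1%, and the 14386 distal CTCF regions without SATB1 in 14.5%. The median distance to the nearest gene end was 27.8, 48.2 and 20.9 kb in the same order. A SATB1 region without CTCF lay a median of 21.6 kb from the nearest CTCF region, and a CTCF region without SATB1 lay 53.8 kb from the nearest SATB1 region. The strongest distal regions with both lay in RTN4 (maxima 2.33 bp apart) and RPS29 (37.5 bp), near RNASE12 (4.50 bp) and ROPN1B (67.0 bp), and in PPRC1 (28.0 bp). Those with SATB1 alone lay near SUCLG1, BMF, PTPRR and KCNS3 and in CADM1. The SUCLG1 one, chr2:83342518-83344545, stood at the 99.9th percentile in both lists with no H3K27ac, 1079 kb from the gene end and 145 kb from the nearest CTCF region. The BMF one spanned 11600 bp. The strongest distal regions with CTCF alone lay in B9D1 and ATP5MC2 and near CYP4F22, NFASC and CBX5. Across chromosomes, the share of SATB1 regions with CTCF ran from 55.3% on chromosome 4 to 96.0% on chromosome 19, and the share of CTCF regions with SATB1 from 20.5% on chromosome 22 to 34.4% on chromosome 6.

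Around gene starts, SATB1 maxima were more spread than CTCF maxima, with a median slightly farther upstream. Among maxima within 2 kb of a RefSeq start in shared regions, the median position was 122 and 121 bp upstream for the SATB1 lists and 96, 94 and 94 bp upstream for the CTCF lists. In CTCF regions without SATB1 it was 70, 67 and 67 bp upstream. The CTCF lists agree to within 3 bp in each group, less than the gap between shared regions and those without SATB1. The SATB1 lists are not independent, so no replicate spread is at hand for the SATB1 position. Of the SATB1 maxima, 25.9% and 25.6% lay within 100 bp of the start, against 40.0% to 40.7% of the CTCF maxima in the same regions. Fewer SATB1 maxima lay upstream of the start, 73.5% and 73.7%, against 79.7% to 79.95% of these CTCF maxima. H3K27ac maxima in regions with all 3 lay 76 and 72 bp upstream.

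**Figure D5:**
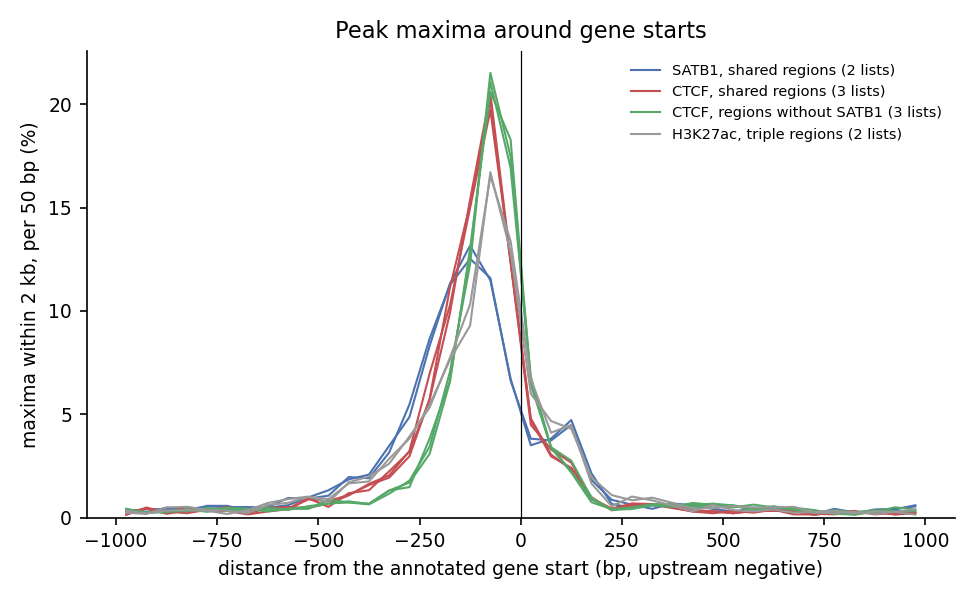
Share of the maxima within 2 kb of an annotated start (y axis, % per 50 bp) by distance from it (x axis, bp, upstream negative), 1 line for each list. SATB1 lines are lower and broader than CTCF lines, with median positions of 122 and 121 bp upstream.

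Base composition and the CTCF motif differed between promoter classes, as windows of 250 bases before to 50 after a RefSeq start (22156 windows of 15813 matched genes). The median A+T content was 36.7% at genes with both, 45.3% with SATB1 alone (107 windows), 34.3% with CTCF alone and 43.3% with neither. The letters CAGNGGGC or the reverse GCCCNCTG, a core of the CTCF motif searched on both strands, were in 12.8% of all windows. They were in 12.8% of windows at genes with both, 9.35% with SATB1 alone (5.16 to 16.4), 15.1% with CTCF alone and 10.4% with neither. Sorted by the maxima in the window itself, the share was 14.2% with maxima of both, 9.86% with a SATB1 maximum alone (7.21 to 13.4), 18.3% with a CTCF maximum alone (17.2 to 19.4) and 11.1% with none. Windows with a CTCF maximum alone were the poorest in A+T, at a median of 32.3%, and those with a SATB1 maximum alone had 39.7%. Of the printed sequences only that of POLR3E holds the letters.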

How the data were processed

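Each list is a deposited SEACR peak file of 1 CUT&Tag library, in which the authors give each peak's summed and maximum signal, a coverage value without stated scaling, and the interval of the maximum. The tools named in the submitters' processing notes are Bowtie2, SAMtools, Trim Galore, SEACR, MACS2 and deepTools, with the build hg38 (GRCh38); their settings and versions are not given in the sources used here. For SATB1 the value 0.007 stands beside SEACR in the list names. Read depth is unknown. Nothing in the labels says that lists came from separate cultures, so spreads may be technical.

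From the 125037 peaks of the 5 lists, 150 outside chromosomes 1 to 22 and X were left out. Regions, overlaps, distances between the centres of maxima of the highest peak per region and list, and percentiles were computed in Python 3.11.15 (pandas 2.3.3, scipy 1.17.1), and checked on simulated lists with planted overlaps and distances. Gene ends (2 kb) and promoters came from RefSeq GRCh38.p14; all 318 list entries matched. Named are the 8 genes and 5 distal regions of highest mean percentile per class, the 5 smallest and 5 largest distances, both own genes and up to 4 members per class of a list; PTPRC was named after its value was seen. Some items that this rule names are not reported here. Members and lists were chosen with earlier results of these data known. Labels share replicate numbers, but nothing ties same-numbered lists of different antibodies. Alternatives changed overlap, list length, lists used, gene-end size and H3K27ac calls.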

Additional observations from a re-analysis of the deposited data

How the results depend on the processing

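Of 133 values under alternatives, 38 were differences that could change sign, and 0 of these did. The others are shares, distances or counts, which have no direction to change. Among the 111 other than the differences in CTCF percentile and width, 48 stayed within the spread or the 1.5 times set for the value and 63 moved past it. With all lists cut to 14726 peaks the values were 44.9% (SATB1 regions with CTCF), 35.2% (CTCF regions with SATB1), 109 bp and 72.4% within 500 bp, 715 genes with SATB1 alone, 4745 with CTCF alone, and 27.5% and 24.3% of distal SATB1 and CTCF regions. With the upper part of each list by signal they were 52.8%, 21.3%, 73.7 bp, 78.6%, 2586 genes with both and 201 with SATB1 alone. Both settings test fewer peaks. Windows of 500 bp on the maxima gave 54.7% and 22.4%, and 42.4% and 17.9% for distal regions. CTCF in all 3 lists gave 67.5%, 28.8%, 71.8% within 500 bp and 132 genes with SATB1 alone. The nearest pair of maxima gave 116 bp and 74.9% within 500 bp. Gene ends of 1 kb gave 60.0% of distal SATB1 regions with CTCF, and of 5 kb 57.3% and 22.8% of distal CTCF regions with SATB1. H3K27ac in either list gave a difference of 39.9 percentage points for SATB1 regions, and distal regions alone 70.3 for CTCF regions. Chosen after seeing the data, annotated starts alone gave 55 genes with SATB1 alone, and CTCF regions up to 3 kb wide gave 73.7 bp and 93.4% within 500 bp.

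Leaving out 1 list at a time gave 67.7% to 69.3% of SATB1 regions with CTCF, 27.9% to 30.0% of CTCF regions with SATB1, medians of 119 to 133 bp, 70.5% to 73.6% within 500 bp, 54.7% to 57.3% and 22.6% to 24.2% for distal SATB1 and CTCF regions, and H3K27ac differences of 41.4 to 44.8 points for SATB1 regions. Requiring both remaining lists narrows the CTCF set by construction. Restricting the distance to same-numbered pairs of lists (the replicate block) gave 124.5 bp and 72.1% within 500 bp. The differences in CTCF percentile and width, judged by direction alone, kept their sign under the 22 alternatives run. Their size did not hold: the percentile difference was 2.43 points over distal regions alone, 9.33 with lists of equal length and 11.1 with the upper part of each list, and the width difference was 300 bp with windows of 500 bp. Peak lists hold no value below the caller's threshold, so a missing peak is not absence of the protein.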
